A study of Homo sapiens with 8 samples.

Results

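The 10 genes described here are ones that Wnt signalling either acts through or switches on were followed in the human colon cancer line HCT116 and in an FBXW7 knockout (KO) of it. FBXW7 picks the proteins that an SCF ubiquitin ligase marks for breakdown. The members are AXIN2, RNF43, ZNRF3, TCF7, LEF1, SP5, NKD1, LGR5, ASCL2 and CTNNB1, and each was found by its gene symbol, so that the set holds 10 of the 55075 genes in the deposited tables. They were named as known parts of the pathway and not picked by a threshold on these data, but earlier results of these data were known. RNA was sequenced from 4 groups with 2 libraries each: KO recovery, KO heat shock, wild-type (WT) recovery and WT heat shock. Every group was first kept at 42 °C for 1 h, and the recovery groups were then kept at 37 °C for 2 h before RNA was taken. Unheated cells were not analysed here, so every recovery change is relative to the end of the heat shock. How the FBXW7 gene was altered, and whether the KO line is 1 clone, is not stated in the labels. The design text calls the replicates biological without saying that they are separate cultures, so a p-value here reflects the spread between libraries, which may be technical.

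In the canonical Wnt pathway a Wnt protein binds a Frizzled receptor and an LRP co-receptor, which disables a destruction complex built on AXIN and APC and lets beta-catenin, the product of CTNNB1, accumulate. Beta-catenin then enters the nucleus and acts with DNA-binding factors of the TCF and LEF family on target genes, several of which are brakes on the pathway itself: AXIN2 rebuilds the destruction complex, RNF43 and ZNRF3 remove Frizzled receptors from the cell surface, and NKD1 acts on Dishevelled. In intestinal crypts the same programme marks stem cells through LGR5 and ASCL2. HCT116 cells carry a stabilising mutation in a CTNNB1 allele, so the pathway is active in them without added Wnt protein.

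Total counts ran from 24531569 to 34387618 in the 4 KO libraries and from 15507896 to 20248480 in the 4 WT libraries, and 17471 genes had enough reads to be tested. Levels are given as CPM, counts relative to each library's TMM-scaled total, and changes as log2 fold changes ± standard error from edgeR's quasi-likelihood test. Adjusted p-values are Benjamini-Hochberg values over all genes tested, with 0.05 as the threshold. The targeted gene, FBXW7, had 14.0 and 13.8 CPM in KO recovery, 17.4 and 14.9 CPM in KO heat shock, 23.0 and 21.7 CPM in WT recovery and 33.5 and 31.4 CPM in WT heat shock. It was lower in all 4 KO libraries. Colon epithelial markers summed to 1938 to 2863 CPM across the libraries, most of it the keratin genes KRT8, KRT18 and KRT19. Of these markers 8 of 11 were tested. KRT20 had only 0.848 to 2.10 CPM, and CDX1, LGALS4 and CDH17 were at or near 0. Fibroblast markers summed to 6.62 to 10.3 CPM, nearly all of it COL1A1, and immune markers to 16.3 to 29.9 CPM, nearly all of it CD68. LUM and CD3E had no read. In WT recovery 4334 genes passed as higher and 4540 as lower, against 5303 and 3686 under upper-quartile scaling. Between KO and WT at recovery 5562 passed as higher and 5464 as lower, against 4212 and 6852 under that scaling, which moved the median of all genes to -0.18 there.

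Of the 10 members, 7 had enough reads to be tested, and SP5 reached the minimum of 0.447 CPM in its 4 KO libraries and in 0 WT libraries. LEF1, LGR5 and ASCL2 fell below it in every library. Per kilobase of exon, the scale on which genes can be compared, CTNNB1 had the highest level of the members in all 8 libraries, at 38.6 to 59.5 CPM per kb. RNF43 and TCF7 followed, at 5.75 to 14.8 and 7.91 to 12.3 CPM per kb. AXIN2 (0.909 to 6.35 CPM per kb) and ZNRF3 (2.74 to 4.65 CPM per kb) overlapped. NKD1, at 0.350 to 0.668 CPM per kb, and SP5, at 0.117 to 0.881 CPM per kb, were lowest of those tested, and the NKD1 value divides by an exon length of 17105 bases summed over all annotated isoforms, which may exceed what is transcribed in these cells.

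**Figure D1:**
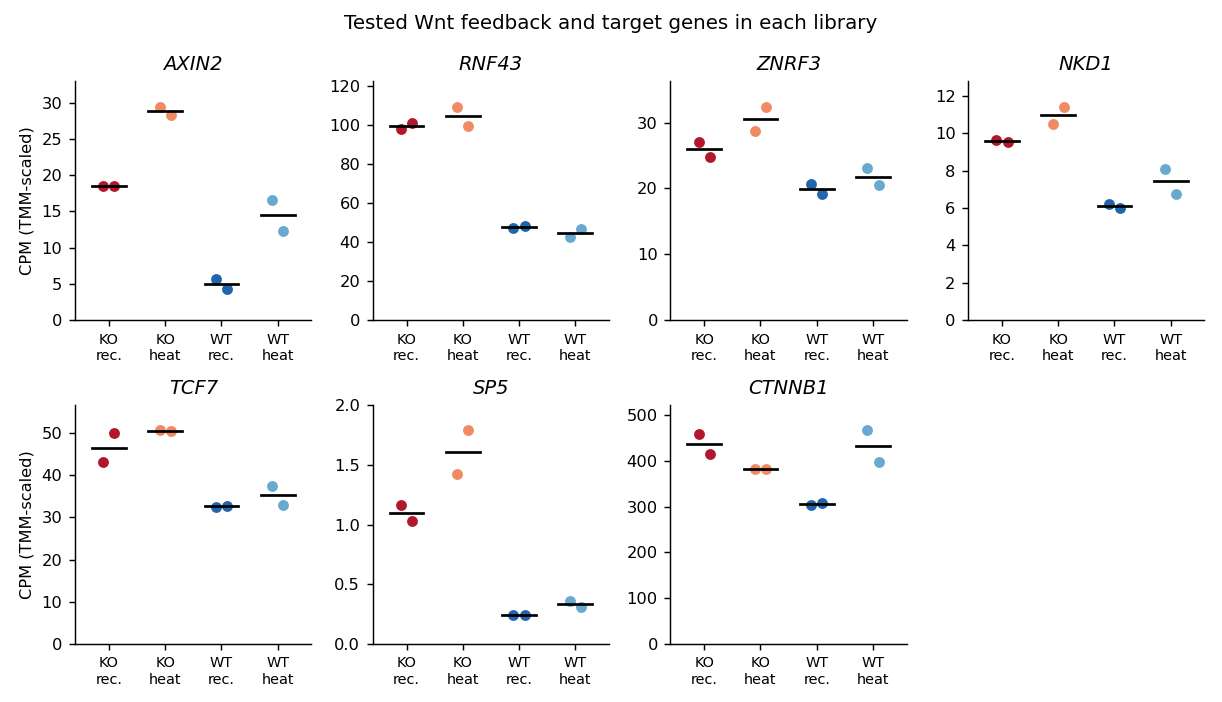
Level of each tested member in each library, in TMM-scaled CPM (vertical axes from 0, 1 panel per gene), with a point per library and a bar at the mean of the 2 libraries. In every panel except that of CTNNB1 the 4 KO libraries lie above the 4 WT libraries, and AXIN2 is lower in recovery than in heat shock in both lines. SP5 passed the filter through its KO libraries alone, so it had to be higher there.

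AXIN2 encodes a scaffold of the destruction complex and is among the most widely used readouts of beta-catenin activity. The gene (ENSG00000168646) lies on the minus strand of chromosome 17 at 65528563 to 65561647 in GRCh38. It had 18.5 and 18.5 CPM in KO recovery, 29.4 and 28.2 CPM in KO heat shock, 5.65 and 4.21 CPM in WT recovery and 16.5 and 12.3 CPM in WT heat shock. No 2 of the 4 groups overlapped, and the order was KO heat shock, KO recovery, WT heat shock, WT recovery from high to low. During recovery AXIN2 fell in both lines, by 0.64 ± 0.10 on the log2 scale in KO cells (adjusted p = 8.3e-05) and by 1.55 ± 0.14 in WT cells (adjusted p = 8.0e-08). The fall was the same way in every matched pair, with log2 changes of -0.67 and -0.61 in the KO pairs and -1.55 in both WT pairs. The authors' deposited table gives -0.84 and -0.69 for the KO pairs and -1.41 for both WT pairs, on its own scaling by column totals. The recovery response itself differed between the lines, by 0.91 ± 0.18 (KO minus WT, adjusted p = 2.4e-04). At each time AXIN2 was compared between the lines, and it was 2.00-fold higher in KO than in WT cells at heat shock (log2 1.00 ± 0.13, adjusted p = 2.0e-05) and 3.75-fold higher at recovery (log2 1.91 ± 0.16, adjusted p = 2.0e-07).

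Some AXIN2 reads may be shared with another gene. ENSG00000266076, on the same strand, overlaps 1316 of its exon bases, and was counted separately with 211 and 235 reads in KO recovery, 283 and 370 in KO heat shock, 34 and 44 in WT recovery and 165 and 117 in WT heat shock. In KO recovery that gene gave a log2 change of -0.20 (adjusted p = 0.289), while in WT recovery it fell by 1.61. With both counts summed, AXIN2 changed by -0.51 in KO recovery and by -1.56 in WT recovery, and the difference of the responses was 1.06, all past the threshold. KO against WT then gave 0.86 at heat shock and 1.93 at recovery, which also passed.

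CTNNB1 (ENSG00000168036, plus strand of chromosome 3 at 41194741 to 41260096 in GRCh38) encodes beta-catenin, whose amount is set mainly by protein breakdown. Its transcript had 460 and 416 CPM in KO recovery, 382 and 384 CPM in KO heat shock, 303 and 308 CPM in WT recovery and 467 and 399 CPM in WT heat shock. The WT recovery libraries were lowest of the 8, while the WT heat shock and KO recovery libraries overlapped. In WT cells CTNNB1 fell during recovery by 0.50 ± 0.10 (adjusted p = 5.0e-04), and in KO cells its change was 0.19 ± 0.10 (adjusted p = 0.136). The log2 changes were 0.27 and 0.12 in the KO pairs and -0.62 and -0.37 in the WT pairs. The authors' deposited values are nearer 0, at 0.11 and 0.03 for the KO pairs and -0.49 and -0.23 for the WT pairs, on their own scaling. In the fit the responses differed by 0.69 ± 0.14 (KO minus WT, adjusted p = 4.5e-04). With offsets for GC content and length the difference was 1.14 and the KO change, 0.44, passed, as it did (0.21) without any 1 of the 4 WT libraries. Between the lines, CTNNB1 was 1.43-fold higher in KO than in WT cells at recovery (log2 0.52 ± 0.09, adjusted p = 1.9e-04). At heat shock the log2 difference of -0.18 ± 0.09 did not pass (adjusted p = 0.112). That last value passed as lower in KO under upper-quartile scaling (-0.24), with GC and length offsets (-0.37) and without WT heat shock replicate 2 (-0.30).

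The other 5 tested members did not pass in recovery in either line. Their changes in KO recovery were -0.07 ± 0.09 for RNF43, -0.12 ± 0.10 for TCF7, -0.20 ± 0.13 for NKD1, -0.24 ± 0.10 for ZNRF3 and -0.56 ± 0.31 for SP5, with adjusted p-values from 0.0733 (ZNRF3) to 0.585 (RNF43). In WT recovery they were 0.10 ± 0.10 for RNF43, -0.11 ± 0.10 for TCF7, -0.28 ± 0.16 for NKD1, -0.13 ± 0.12 for ZNRF3 and -0.46 ± 0.66 for SP5, with adjusted p-values from 0.147 (NKD1) to 0.592 (SP5). In KO recovery ZNRF3 passed as lower with GC and length offsets (-0.28) and without any 1 of the WT libraries (-0.23), and TCF7 (-0.21) and SP5 (-0.86) passed with those offsets. So 1 of 7 tested members fell and 0 rose in KO recovery, where 41.8% of all genes tested were called, 20.6% as higher and 21.1% as lower. In WT recovery 2 of 7 fell and 0 rose, where 50.8% were called, 24.8% as higher and 26% as lower. The difference of the responses was called for 2 of 7, both positive, against 56.3% of all genes, with 28.5% positive and 27.8% negative. Counted in either direction, the member shares were below those of all genes, and by direction the 2 falls in WT recovery and the 2 positive differences were close to the shares of all genes. The median member changes were -0.20 in KO recovery and -0.28 in WT recovery, beside -0.02 and 0.01 for all genes.

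**Figure D2:**
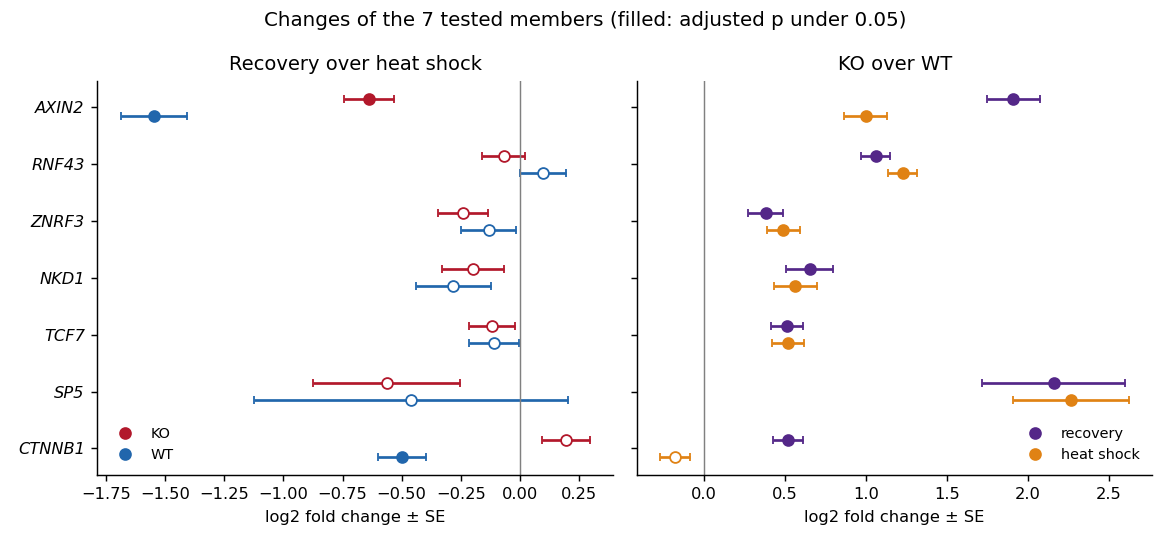
Log2 fold changes of the 7 tested members with standard errors from the fit across all genes, recovery over heat shock in each line at left and KO over WT at each time at right. Filled points passed at an adjusted p under 0.05. At left only AXIN2 (both lines) and CTNNB1 (WT) are filled, and at right only CTNNB1 at heat shock is open, where SP5 had entered the test through its KO libraries alone.

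Between the lines, most tested members were higher in KO cells. SP5 passed the filter through its KO libraries alone, so it had to be higher there, and the counts here leave it out. At heat shock 5 of the other 6 tested members passed as higher in KO than in WT cells and 0 as lower, where 55.6% of all genes were called, 27.4% as higher and 28.2% as lower. At recovery 6 of these 6 passed as higher, where 63.1% of all genes were called, with 31.8% higher and 31.3% lower. Since the members were chosen with earlier results of these data known, these counts are a description. In 5 of these 6 members all 4 KO libraries lay above all 4 WT libraries, a pattern that 14.7% of all genes tested showed, and CTNNB1 was the exception. The median log2 difference of the 6 was 0.54 at heat shock and 0.59 at recovery, beside -0.03 and -0.01 over all genes. In libraries made from whole cultures, a change in the RNA per cell and a change in the share of cells that hold it cannot be told apart.

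RNF43 and ZNRF3 are related transmembrane ubiquitin ligases that send Frizzled receptors to the lysosome. RNF43 (ENSG00000108375, minus strand of chromosome 17 at 58352500 to 58417595 in GRCh38) had 97.8 and 101 CPM in KO recovery, 109 and 99.3 CPM in KO heat shock, 47.3 and 48.1 CPM in WT recovery and 42.4 and 46.8 CPM in WT heat shock. The 2 times overlapped or lay close in each line, and the lines did not overlap at either time. It was 2.34-fold higher in KO cells at heat shock (log2 1.23 ± 0.09, adjusted p = 6.7e-08) and 2.08-fold higher at recovery (log2 1.06 ± 0.09, adjusted p = 1.3e-07). RNF43 shares 143 exon bases with SUPT4H1 on the same strand and 1220 with the antisense gene ENSG00000265148. Another gene on the same strand, ENSG00000285897, shares 4313 of its exon bases and was not analysed here. KO against WT, SUPT4H1 and ENSG00000265148 gave -0.39 and 0.00 at heat shock and 0.57 and 0.81 at recovery. Neither was higher in KO cells at heat shock, and both passed as higher at recovery. The part of shared reads in the RNF43 differences was not tested.

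ZNRF3 (ENSG00000183579, plus strand of chromosome 22 at 28883592 to 29057487 in GRCh38) showed a smaller difference. It had 27.1 and 24.7 CPM in KO recovery, 28.8 and 32.4 CPM in KO heat shock, 20.7 and 19.1 CPM in WT recovery and 23.0 and 20.6 CPM in WT heat shock. It was 1.41-fold higher in KO cells at heat shock (log2 0.49 ± 0.10, adjusted p = 0.0011) and 1.30-fold higher at recovery (log2 0.38 ± 0.11, adjusted p = 0.0070). The difference at recovery did not pass under upper-quartile scaling (0.22) or without KO recovery replicate 1 or WT recovery replicate 2 (0.32 each).

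NKD1 (ENSG00000140807, plus strand of chromosome 16 at 50548330 to 50649249 in GRCh38), which binds Dishevelled and dampens the signal, had 9.64 and 9.52 CPM in KO recovery, 10.5 and 11.4 CPM in KO heat shock, 6.20 and 5.99 CPM in WT recovery and 8.09 and 6.77 CPM in WT heat shock. The lines did not overlap at either time. It was 1.48-fold higher in KO cells at heat shock (log2 0.56 ± 0.13, adjusted p = 0.0020) and 1.57-fold higher at recovery (log2 0.65 ± 0.14, adjusted p = 0.0011).

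TCF7 encodes TCF1, one of the DNA-binding partners of beta-catenin, and also short forms that lack the beta-catenin binding region. The gene (ENSG00000081059, plus strand of chromosome 5 at 134114711 to 134151865 in GRCh38) had 43.2 and 50.1 CPM in KO recovery, 50.7 and 50.5 CPM in KO heat shock, 32.6 and 32.7 CPM in WT recovery and 37.6 and 33.0 CPM in WT heat shock. The KO libraries were higher throughout, by 1.43-fold at heat shock (log2 0.52 ± 0.10, adjusted p = 3.8e-04) and by 1.43-fold at recovery (log2 0.51 ± 0.10, adjusted p = 3.9e-04). Counts per gene do not separate the forms. Its relative LEF1 (ENSG00000138795, minus strand of chromosome 4 at 108047545 to 108168956 in GRCh38) had 0 reads in 7 libraries and 1 read in WT heat shock replicate 1. The 0 reads allow up to 0.0713 CPM in KO recovery, 0.0610 CPM in KO heat shock and 0.118 CPM in WT recovery (exact 95% Poisson limits on unscaled totals, covering counting error only).

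SP5 encodes a zinc finger repressor that Wnt signalling switches on directly in many cell types. The gene (ENSG00000204335) lies on the plus strand of chromosome 2 at 170715351 to 170718078 in GRCh38. It rested on few reads: 26 and 27 in KO recovery, 38 and 63 in KO heat shock, 4 and 4 in WT recovery and 7 and 6 in WT heat shock. In CPM these were 1.16 and 1.03, 1.42 and 1.79, 0.243 and 0.237, and 0.358 and 0.308 in the same order. The lines did not overlap at either time. Since SP5 entered the table of tested genes through its 4 KO libraries alone, its difference between the lines is given as a description: 4.80-fold at heat shock (log2 2.26 ± 0.36) and 4.46-fold at recovery (log2 2.16 ± 0.44), KO over WT.

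The promoters of SP5, a gene known as a direct Wnt target, and of RNF43, which had the largest log2 difference between the lines at heat shock of the members that passed the filter in both lines, are shown as 300 bases around the start (250 before it and 50 after it, RefSeq, GRCh38.p14), 5′ to 3′ on the gene's own strand. Capitals mark TCAAAG, the core sequence bound by TCF and LEF factors, or its reverse complement CTTTGA. The SP5 window is chr2:170715087-170715386 on the plus strand and the RNF43 window chr17:58417485-58417784 on the minus strand.
SP5: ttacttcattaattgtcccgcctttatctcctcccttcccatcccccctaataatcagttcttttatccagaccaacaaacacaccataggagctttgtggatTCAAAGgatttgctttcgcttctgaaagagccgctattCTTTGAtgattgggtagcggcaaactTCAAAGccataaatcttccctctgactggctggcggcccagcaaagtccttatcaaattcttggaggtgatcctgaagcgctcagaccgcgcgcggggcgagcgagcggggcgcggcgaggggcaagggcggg
RNF43: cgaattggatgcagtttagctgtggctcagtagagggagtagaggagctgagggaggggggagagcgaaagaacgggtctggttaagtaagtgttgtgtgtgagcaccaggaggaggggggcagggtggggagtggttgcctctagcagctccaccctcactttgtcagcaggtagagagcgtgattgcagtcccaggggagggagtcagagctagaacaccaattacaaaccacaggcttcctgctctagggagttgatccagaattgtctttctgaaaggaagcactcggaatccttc

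The SP5 window held 3 matches, which began 147, 109 and 83 bases before the start, the middle one on the other strand. Among all 35116 promoter windows of this length, 12.9% held at least 1 match on either strand, 1.29% at least 2 and 0.0997% at least 3. Promoter windows were found for 5 of the 10 members, 7 windows in all, and SP5's was the 1 window with a match. The windows of RNF43 (2), TCF7 (2), LEF1 and CTNNB1 held no such letters. A match describes the sequence and is not a measured binding site, and the lack of one within 300 bases says nothing of sites elsewhere.

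LGR5 and ASCL2, the crypt stem cell members, were near the limit of detection. LGR5, a receptor for R-spondins (ENSG00000139292, plus strand of chromosome 12 at 71439770 to 71586310 in GRCh38), had 0 and 1 reads in KO recovery, 6 and 5 in KO heat shock, 0 and 1 in WT recovery and 0 and 0 in WT heat shock. The 11 reads of KO heat shock amount to 0.182 CPM on unscaled totals (exact 95% Poisson interval 0.0908 to 0.325), while 0 reads in WT heat shock allow up to 0.0917 CPM, just inside that interval. ASCL2, a basic helix-loop-helix factor (ENSG00000183734, minus strand of chromosome 11 at 2268495 to 2270952 in GRCh38), had 1 read in KO recovery, 1 in KO heat shock and 0 in the 4 WT libraries, so no difference was detectable at this depth.

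Likeness to AXIN2 across the 8 libraries was measured by Pearson's r of log2 CPM, after adding 0.5 CPM. It covered 13117 genes with a mean count of at least 50. TMEM97, DPYSL2, KCNK5, NCAPH and MIS12 were most alike, with r of 0.991 to 0.993. KCNK5, a potassium channel gene, had 13.5 and 14.7 CPM in KO recovery, 22.1 and 21.1 CPM in KO heat shock, 5.65 and 5.22 CPM in WT recovery and 13.3 and 12.0 CPM in WT heat shock. Of the tested members, SP5 missed the minimum count. Among the rest, NKD1 was closest to AXIN2 (r = 0.941, rank 435), followed by ZNRF3 (0.890), TCF7 (0.865), RNF43 (0.736) and CTNNB1 (0.710). These values describe 8 libraries that form 4 groups of 2, which all genes share.

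The rest of the pathway was read from 6 lists of genes. The counts of each list stand against the shares of all genes tested that passed: 20.6% higher and 21.1% lower in KO recovery, 24.8% and 26% in WT recovery, and 28.5% and 27.8% for the difference of the responses. KO against WT, these shares were 27.4% and 28.2% at heat shock and 31.8% and 31.3% at recovery. Among 25 Wnt ligands and secretion factors, 16 were tested and 4 had no read. In KO recovery 5 passed as higher and 0 as lower, with a median of 0.25, and in WT recovery 2 and 2, with a median of 0.01. KO against WT, 4 were higher and 5 lower at heat shock (median 0.07) and 4 were higher and 5 lower at recovery (median -0.02). These counts include RSPO1, called higher in KO recovery (4.52 ± 1.65) from 0.179 and 0.0761 CPM there and 0 CPM in both KO heat shock libraries. RSPO1 stayed below the minimum of 0.447 CPM in every KO library. It was thus tested through WT libraries alone, which favoured its call as lower in KO cells at heat shock. WNT16 had 266 and 245 CPM in KO recovery, 195 and 203 CPM in KO heat shock, 43.3 and 46.1 CPM in WT recovery and 46.6 and 50.5 CPM in WT heat shock. It was higher in KO cells by 2.04 ± 0.09 at heat shock (adjusted p = 5.8e-10) and by 2.51 ± 0.09 at recovery (adjusted p = 8.8e-11). Its rise in KO recovery (0.36 ± 0.09, adjusted p = 0.0044) was 0.60 with GC and length offsets. The rise did not pass without KO recovery replicate 1 (0.29) or KO heat shock replicate 1 (0.27). Either omission leaves the replicate 2 pair as the only KO pair. WNT3A, a ligand of the canonical pathway, was present at 5.36 and 5.86 CPM in KO recovery, 5.84 and 5.71 CPM in KO heat shock, 0.486 and 0.534 CPM in WT recovery and 1.23 and 1.08 CPM in WT heat shock, which gave KO over WT 2.32 ± 0.20 at heat shock and 3.45 ± 0.25 at recovery. WNT3 was higher in KO cells as well (0.83 ± 0.14 and 1.06 ± 0.14). WNT7B was lower in KO cells at heat shock (-0.75 ± 0.13, and -0.40 with GC and length offsets), and WLS, which carries Wnt proteins to the cell surface, was higher at recovery (0.66 ± 0.08).

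Of 20 receptors and Dishevelled genes, 17 were tested. In KO recovery 3 passed as higher and 7 as lower (median -0.25), and in WT recovery 6 as higher and 3 as lower (median 0.17), so that the list's medians had opposite signs in the lines. The difference of the responses was positive for 4 and negative for 9, with a median of -0.42. FZD4 had 6.29 and 5.90 CPM in KO recovery, 13.7 and 13.6 CPM in KO heat shock, 16.3 and 17.4 CPM in WT recovery and 8.14 and 8.10 CPM in WT heat shock. It fell by 1.16 ± 0.13 in KO recovery (adjusted p = 1.2e-06) and rose by 1.05 ± 0.13 in WT recovery (adjusted p = 3.2e-06), a difference of -2.22 ± 0.18 (adjusted p = 2.0e-08). FZD7 rose in WT recovery by 1.45 ± 0.13, with a difference of responses of -1.70 ± 0.18. LGR4, a relative of LGR5, fell in KO recovery by 1.02 ± 0.13, with a difference of -1.76 ± 0.21.

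The co-receptor LRP5 moved the other way: it rose in KO recovery by 0.54 ± 0.11 and fell in WT recovery by 0.85 ± 0.11, a difference of 1.39 ± 0.15 (adjusted p = 3.7e-07). With GC and length offsets the LRP5 values were 0.35, -0.54 and 0.89. Without KO heat shock replicate 1, which leaves 1 KO pair, the LRP5 rise in KO recovery was 0.45 and did not pass. KO against WT, 7 receptors were higher and 5 lower at heat shock (median 0.16), and 4 higher and 8 lower at recovery (median -0.22). At heat shock LGR4 (1.20 ± 0.16) and FZD3 (0.91 ± 0.09) were higher and LRP5 (-0.96 ± 0.12) and FZD6 (-0.57 ± 0.08) lower in KO cells. With GC and length offsets FZD3 was 0.42, LRP5 -0.60 and FZD6 -1.05. At recovery FZD4 (-1.47 ± 0.12), FZD1 (-1.32 ± 0.15), FZD7 (-1.10 ± 0.12) and FZD6 (-0.99 ± 0.09) were lower.

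All 15 genes of the destruction complex and its regulators were tested. In KO recovery 3 rose and 3 fell (median -0.04), in WT recovery 5 rose and 5 fell (median 0.04), and the responses differed in 5 positively and 6 negatively (median -0.21). CSNK1D, a casein kinase 1 isoform, had 270 and 268 CPM in KO recovery, 192 and 186 CPM in KO heat shock, 138 and 133 CPM in WT recovery and 273 and 246 CPM in WT heat shock. It rose by 0.51 ± 0.09 in KO recovery and fell by 0.93 ± 0.10 in WT recovery, a difference of 1.44 ± 0.13 (adjusted p = 7.0e-08). PPP2R1A, the scaffold subunit of protein phosphatase 2A, gave the same pattern (0.55 ± 0.10 in KO recovery, -0.67 ± 0.10 in WT recovery, difference 1.21 ± 0.14). USP34, a deubiquitinase of AXIN proteins, rose in WT recovery by 0.55 ± 0.10 (0.30 with GC and length offsets). KO against WT, 7 were higher and 4 lower at heat shock (median 0.21), with TNKS2, a tankyrase that marks AXIN proteins for breakdown, higher by 1.23 ± 0.08. At recovery 6 were higher and 4 lower (median 0.11), with CSNK1D higher by 0.98 ± 0.08.

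Of 18 extracellular and membrane inhibitors, 8 were tested and 4 had no read. DKK1, a secreted blocker of LRP5 and LRP6 and itself a Wnt target, was the most abundant of them named here. It had 1178 and 1266 CPM in KO recovery, 715 and 731 CPM in KO heat shock, 212 and 204 CPM in WT recovery and 348 and 376 CPM in WT heat shock, and no 2 groups overlapped. DKK1 rose in KO recovery by 0.76 ± 0.10 (adjusted p = 8.3e-06) and fell in WT recovery by 0.80 ± 0.10 (adjusted p = 3.4e-06), and the responses differed by 1.55 ± 0.14 (adjusted p = 5.4e-08). KO over WT it was higher by 1.00 ± 0.08 at heat shock and by 2.55 ± 0.09 at recovery (adjusted p = 4.7e-11). In WT recovery NKD2, the paralog of NKD1, fell by 1.07 ± 0.17 and DACT3 rose by 1.70 ± 0.30, within 4 higher and 3 lower (median 0.22). In KO recovery 1 passed as higher and 1 as lower (median -0.12). KO against WT, 3 were higher and 0 lower at heat shock (median 0.27), among them DACT1 (2.04 ± 0.28), and 3 were higher and 4 lower at recovery (median 0.06), with NKD2 at 0.88 ± 0.17.

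**Figure D3:**
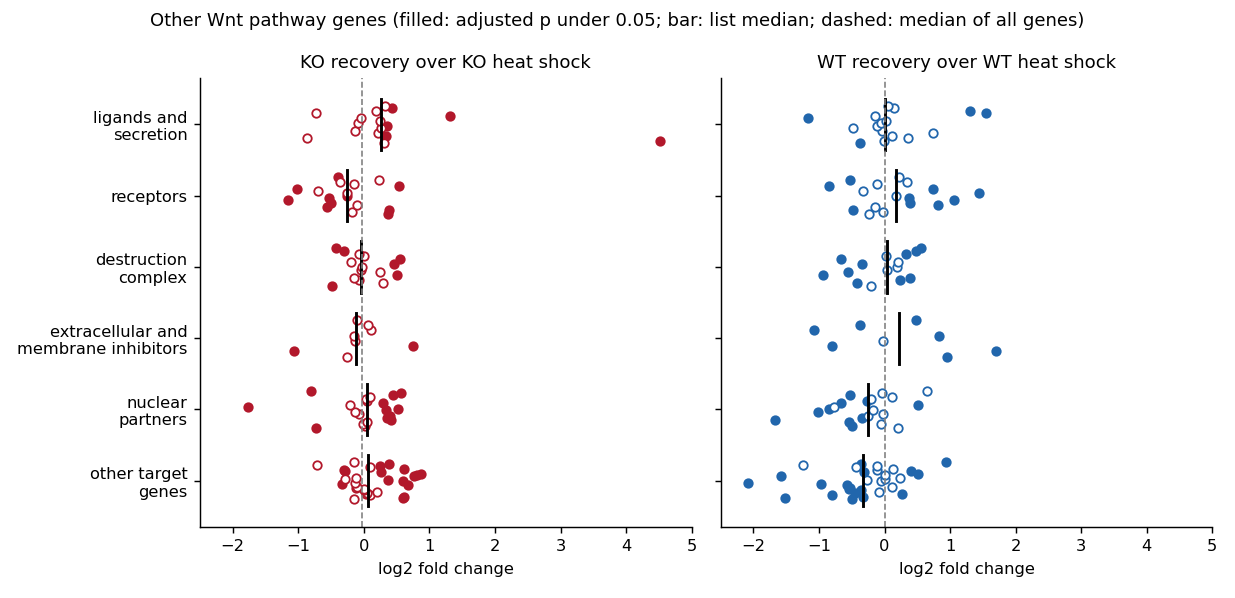
Log2 fold change of every tested gene of the 6 pathway lists in KO recovery (left) and WT recovery (right), with filled points for an adjusted p under 0.05, a bar at each list's median and a dashed line at the median of all genes. The medians of the nuclear partners and of the other target genes lie near 0 in KO recovery (0.05 and 0.07) and below it in WT recovery (-0.26 and -0.32).

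Of 21 nuclear partners of beta-catenin, 20 were tested. In KO recovery 8 rose and 3 fell (median 0.05), where 20.6% and 21.1% of all genes did. In WT recovery 1 rose and 9 fell (median -0.26), where 24.8% and 26% of all genes did, and the difference of the responses was positive for 11 and negative for 3 (median 0.51). CREBBP, a histone acetyltransferase, had 257 and 256 CPM in KO recovery, 203 and 184 CPM in KO heat shock, 78.1 and 81.2 CPM in WT recovery and 290 and 220 CPM in WT heat shock. It fell in WT recovery by 1.66 ± 0.11 (adjusted p = 1.9e-09), and the responses differed by 2.07 ± 0.15 (adjusted p = 5.3e-09). Its relative EP300 fell in WT recovery by 1.02 ± 0.10, and MED12, a Mediator subunit, rose in KO recovery by 0.52 ± 0.10 and fell in WT recovery by 0.85 ± 0.11. BCL9, which binds beta-catenin, fell in KO recovery by 0.73 ± 0.10 (difference -0.95 ± 0.14), and the corepressor gene TLE3 rose there by 0.57 ± 0.10.

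KO against WT, 2 nuclear partners were higher and 9 lower at heat shock (median -0.25), and 11 were higher and 5 lower at recovery (median 0.27). TCF7L2, encoding TCF4, the main TCF factor of colon epithelium, had 155 and 151 CPM in KO recovery, 151 and 149 CPM in KO heat shock, 226 and 218 CPM in WT recovery and 279 and 234 CPM in WT heat shock. It was lower in KO than in WT cells at heat shock (-0.77 ± 0.09, adjusted p = 6.8e-06), opposite in sign to TCF7. At recovery CREBBP (1.69 ± 0.11) and EP300 (0.76 ± 0.09) were higher in KO cells.

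Of 37 other Wnt and beta-catenin target genes of colon cells, 30 were tested and 2 had no read. In KO recovery 12 rose and 3 fell (median 0.07), in WT recovery 4 rose and 14 fell (median -0.32), and the responses differed positively in 19 and negatively in 2 (median 0.51). MYC had 600 and 549 CPM in KO recovery, 329 and 350 CPM in KO heat shock, 266 and 251 CPM in WT recovery and 802 and 751 CPM in WT heat shock. MYC was thus higher in KO than in WT cells at recovery (1.15 ± 0.09) and lower at heat shock (-1.19 ± 0.09). PLAUR (0.87 ± 0.10), the urokinase receptor gene, PHLDA1 (0.81 ± 0.10) and SOX9 (0.62 ± 0.10), a transcription factor of crypt progenitors, rose in KO recovery. In WT recovery ID2, which blocks helix-loop-helix transcription factors, fell by 2.09 ± 0.10.

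KO against WT, 7 of these targets were higher and 11 lower at heat shock (median -0.10), and 15 were higher and 6 lower at recovery (median 0.36). BMP4, a secreted growth factor, had 331 and 299 CPM in KO recovery, 212 and 202 CPM in KO heat shock, 17.6 and 15.4 CPM in WT recovery and 56.7 and 39.0 CPM in WT heat shock. It was higher in KO cells by 2.11 ± 0.13 at heat shock (adjusted p = 2.6e-08) and by 4.26 ± 0.15 at recovery (adjusted p = 8.8e-11). SLC12A2, a chloride transporter gene, was higher at heat shock (1.03 ± 0.09), and ID2 at recovery (1.82 ± 0.09). TIAM1, an activator of RAC1, was lower in KO cells at both times (-1.61 ± 0.08 at heat shock and -1.24 ± 0.08 at recovery). The targets named here thus included genes higher and genes lower in KO cells.

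**Figure D4:**
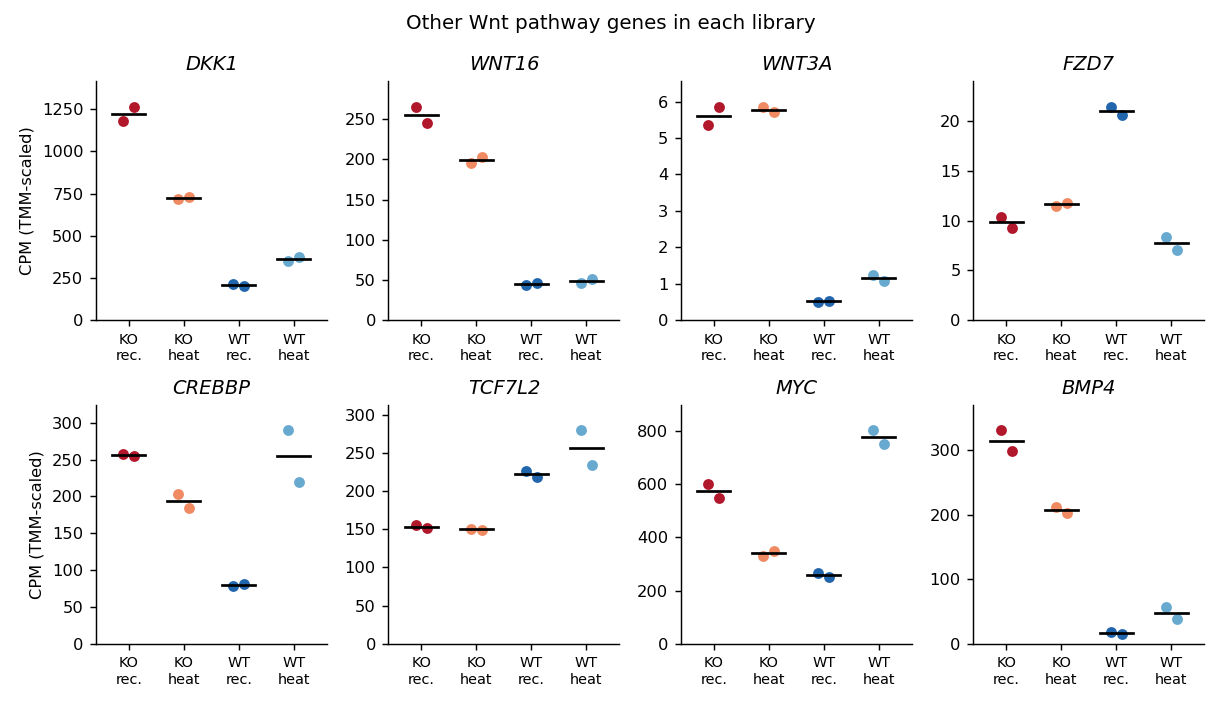
Level of 8 other pathway genes in each library, in TMM-scaled CPM (vertical axes from 0), with a point per library and a bar at the mean of the 2 libraries. DKK1, WNT16, WNT3A and BMP4 lie higher in all 4 KO libraries and TCF7L2 lower, while MYC and CREBBP are lowest in WT recovery.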

How the data were processed

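RNA-seq of 8 HCT116 libraries was analysed. Per the labels, poly-A+ or Ribominus RNA was made into strand-specific libraries by the dUTP method and read as 50-base single reads, without saying which RNA each library came from. CASAVA, TopHat and hg19 are named in the submitters' processing notes without versions. No source used here names the counting program or says whether it used strand, so reads of genes overlapping on opposite strands may have been mixed. The authors deposited 4 tables, 1 per cell line and replicate, each holding 1 recovery and 1 heat shock library. Per the file headers these give raw read counts, log2 fold changes before and after normalization by column totals, a z-score, a p-value and q-values in the layout of DEGexp. The authors' log2 values were used only where named, and the deposited score, p-value and q-value columns were not used. The first count column was taken as recovery from the order in which each comparison is named and the sign of the deposited log2 fold change. A wrong order would exchange recovery and heat shock in every library: all recovery changes would turn sign, and the KO against WT results of both times would trade places. NA was read as 0.

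Of 55075 genes, 32200 had a read and 17471 passed filterByExpr. Counts were scaled by TMM and tested in edgeR 4.0.16 (R 4.3.3) with its quasi-likelihood method over all 8 libraries, with p-values adjusted by the Benjamini-Hochberg method over all genes tested. Recovery was compared with heat shock within pairs matched by line and number, the layout that the series design text gives, leaving 2 residual degrees of freedom. The interaction of line and time gave the difference of the responses. Deviations of same-numbered libraries correlated at -0.0138 in KO and -0.0156 in WT across genes. KO was compared with WT without a block (4 residual degrees of freedom). Standard errors were derived from each log2 change and its test statistic. Replicates correlated at r = 0.991 to 0.995 and differed by more than sampling noise (chi-square per degree of freedom from 2.57 in WT recovery to 20.6 in WT heat shock), so no pair was treated as copies of 1 library. Deposited counts carry no molecular identifiers, so intervals cover counting error only.

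The members and lists were chosen with earlier results of these data known. The text names all 10 members, FBXW7 and, of each list, up to 4 genes per comparison with the lowest p. Loci, exon lengths and GC content come from GENCODE in GRCh38, not the build of the counts. Exon lengths gave the levels per kilobase and, with GC content, the offsets. Exon overlaps gave the genes said to share bases, among them the gene summed with AXIN2. Alternatives were DESeq2 1.42.0 (test or size factors), upper-quartile scaling, no filter, GC and length offsets (mgcv 1.9.3, 16673 genes), the replicate block swapped and each library left out. Python 3.11.15 and matplotlib 3.10.9 made the summaries and figures.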

Additional observations from a re-analysis of the deposited data

Results flagged for a closer look

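The recovery response differed between the lines, by the interaction term of edgeR's quasi-likelihood fit, for 2 of the 7 tested members, where 56.3% of all genes tested were called. For AXIN2 the difference was 0.91 on the log2 scale (KO minus WT), with falls in both lines and in all 4 matched pairs. For CTNNB1 it was 0.69, with log2 changes above 0 in both KO pairs and below 0 in both WT pairs. The total counts of the libraries moved with the lines, at 24531569 to 34387618 in KO and 15507896 to 20248480 in WT, and their part in these differences was not tested.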

How the results depend on the processing

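Over 14 other settings, AXIN2 passed in all 5 comparisons, with log2 values of -0.69 to -0.58 in KO recovery, -1.59 to -1.38 in WT recovery and 0.69 to 0.98 for their difference. Of 20 counts of genes or members compared over 280 alternatives, 257 stayed within 1.5 times the reported count. Summing AXIN2 with the overlapping gene was chosen after seeing the data.

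The genes called in KO recovery, 3601 higher and 3694 lower, were 2385 and 2416 by DESeq2. They were 1520 to 4233 and 1318 to 4012 when 1 library was left out. The cause of these changes in count was not tested. In the recovery tests and the difference of the responses, such an omission leaves the partner library without a match. It then adds nothing to the recovery change, so that line rests on 1 pair and the spread between pairs comes from the other line alone. In KO against WT, which has no block, a lone library is assumed to vary like the other groups. Members called in KO recovery were 1 higher and 4 lower with GC and length offsets, and 0 to 1 higher and 1 to 2 lower when 1 library was left out. With those offsets 1 member, TCF7 (-0.31), was called lower in the difference of the responses. Members called lower in KO against WT at heat shock were 1 (CTNNB1) under upper-quartile scaling and with the offsets, and 0 to 1 when 1 library was left out.

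Values that turned sign had not passed the test. With the offsets the WT recovery changes of ZNRF3 and TCF7 became 0.042 and 0.091 and the NKD1 difference -0.16, which was -0.021 under upper-quartile scaling, and the TCF7 difference was 0.061 without a filter. When 1 library was left out, KO recovery gave -0.16 to 0.047 for RNF43 and -0.23 to 0.012 for TCF7, and the difference gave -0.12 to 0.13 for TCF7, -0.26 to 0.052 for ZNRF3 and -0.33 to 0.17 for SP5.

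Without the replicate block, 3611 genes were higher and 3788 lower in KO recovery and 4442 and 4603 in WT recovery, and the members called were the same in number. With a replicate block, KO against WT gave 4751 higher and 4905 lower at heat shock and 5550 and 5463 at recovery, and the pairing changed no call of a member.

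Depth limits SP5, with 4 to 7 reads per WT library, and LEF1, LGR5 and ASCL2, which could not be tested. With 2 libraries per group no value can be set against more than 1 other of its group.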
